A study of Rattus norvegicus with 8 samples.

Results

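The mitochondrial respiratory chain genes were examined in glomeruli of 2 inbred rat strains, Dahl and SHR, at 4 and 6 weeks of age. They were all genes whose symbol on the array begins with Nduf, Uqcr, Cox4, Cox5, Cox6, Cox7, Cox8 or Atp5, together with Sdha, Sdhb, Sdhc and Sdhd, which gave 86 of the 14217 genes that the array names. The rule reads symbols only, and probe sets with several symbols were left out. Where a gene had several probe sets, the one with the highest mean stands for it. Of the 86 genes, 34 encode subunits of complex I, 6 assembly factors of complex I, 4 subunits of complex II, 7 subunits of complex III, 16 proteins of complex V and 19 the complex IV group. The last also holds Ndufa4 and Ndufa4l2, whose symbols recall complex I, the supercomplex factor Cox7a2l and the pseudogene Cox6c-ps1.

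The Dahl salt-sensitive (Dahl SS) rat develops proteinuria spontaneously, and the spontaneously hypertensive rat (SHR) served as the non-proteinuric comparison. All rats were male, were untreated and, per the study's methods, received a low-salt diet, and glomeruli were retrieved from the left kidney with magnets. Each of the 4 groups, Dahl at 4 weeks, Dahl at 6 weeks, SHR at 4 weeks and SHR at 6 weeks, held 2 rats, with 1 array per rat and 8 arrays in all. Both strains are used as models of hypertension and differ across the genome, so a strain difference cannot be assigned to proteinuria.

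The respiratory chain sits in the inner mitochondrial membrane. Complexes I and II take electrons from NADH and succinate, complex III passes them to cytochrome c, complex IV hands them to oxygen, and complex V (ATP synthase) uses the resulting proton gradient to make ATP. In the kidney, mitochondria are packed most densely in the cells of the proximal tubule and thick ascending limb, whereas podocytes and other glomerular cells hold fewer. Several subunits of complex IV exist as paired isoforms, one widely expressed and one restricted to muscle, lung or testis.

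Values are log2 intensities as deposited, 1 probe set (a group of short oligonucleotides for one transcript) per gene. The median of all probe sets ran from 4.11 to 4.16 across the arrays, and the median of the 86 genes from 10.19 to 10.91. Of the 86 genes, 75 lay among the brightest 25% of probe sets and 6 in the dimmer 50%. Correlations between arrays ran from 0.989 to 0.997 within groups. The podocyte markers Nphs1, Synpo and Wt1 were measured, and Synpo read 11.41 to 12.64, but markers of the proximal tubule were also bright, with Cyp2e1 between 7.76 and 13.53. The second Dahl array at 6 weeks stood apart: it was the lowest of the 8 arrays for 72 of the 86 respiratory chain genes.

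Across both ages, glomerular mRNA of 36 of the 86 respiratory chain genes (41.9%) was called lower in Dahl rats than in SHR rats, beside 21.2% of all genes, and that of 3 was called higher, beside 13.2% of all genes. The median difference was -0.35 on the log2 scale (a fold of 0.784), against -0.05 over all genes. Another 47 genes did not pass, although 79 of the 86 differences lay below 0, beside 8429 of all 14217 genes. Genes were called with limma at an adjusted p below 0.05, adjusted by the method of Benjamini and Hochberg across the 31042 probe sets. With 2 rats per group the counts were unstable: quantile normalization left 9 lower and 3 higher, and leaving out single arrays gave between 4 and 60 calls, with 16 when the second Dahl array at 6 weeks was left out.

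Since most members are bright, the count was also set beside genes of like brightness. Among the 75 members in the brightest 25% of probe sets, 35 were called lower and 2 higher, with a median difference of -0.37. Of all 5523 genes in that class, 773 (14.0%) were called lower, with a median of 0.02. All Dahl rats lay below all SHR rats for 40 of the 86 genes (46.5%), beside 33.5% of all genes, and above every SHR rat for 3, beside 9.35%.

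Scores of tubular markers were also lower in Dahl rats. The tubule score of an array, the median deviation of 25 proximal tubule markers from their means over the 8 arrays, was 0.09 and -0.05 in Dahl rats at 4 weeks, -0.25 and -1.89 in Dahl rats at 6 weeks, 0.69 and 0.95 in SHR rats at 4 weeks and 0.27 and 0.45 in SHR rats at 6 weeks. The same score over the 86 respiratory chain genes was 0.01 and -0.02, -0.16 and -0.50, 0.08 and 0.28, and 0.10 and 0.19 in that order. In both scores the second Dahl array at 6 weeks was lowest, the second SHR array at 4 weeks was highest, and no Dahl array reached an SHR array. Of the 25 markers, 6 were called lower in Dahl rats (24.0%, near the 21.2% of all genes) and none higher, with a median of -1.09, and each of the 25 read at least 7.58 in its brightest array. For 16 distal nephron and collecting duct markers the count was 7 lower (43.8%) and none higher, with a median of -0.81. The part of tubular tissue in the respiratory chain result was not tested, and in whole glomeruli fewer cells of a type and less RNA per cell cannot be told apart.

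**Figure D1:**
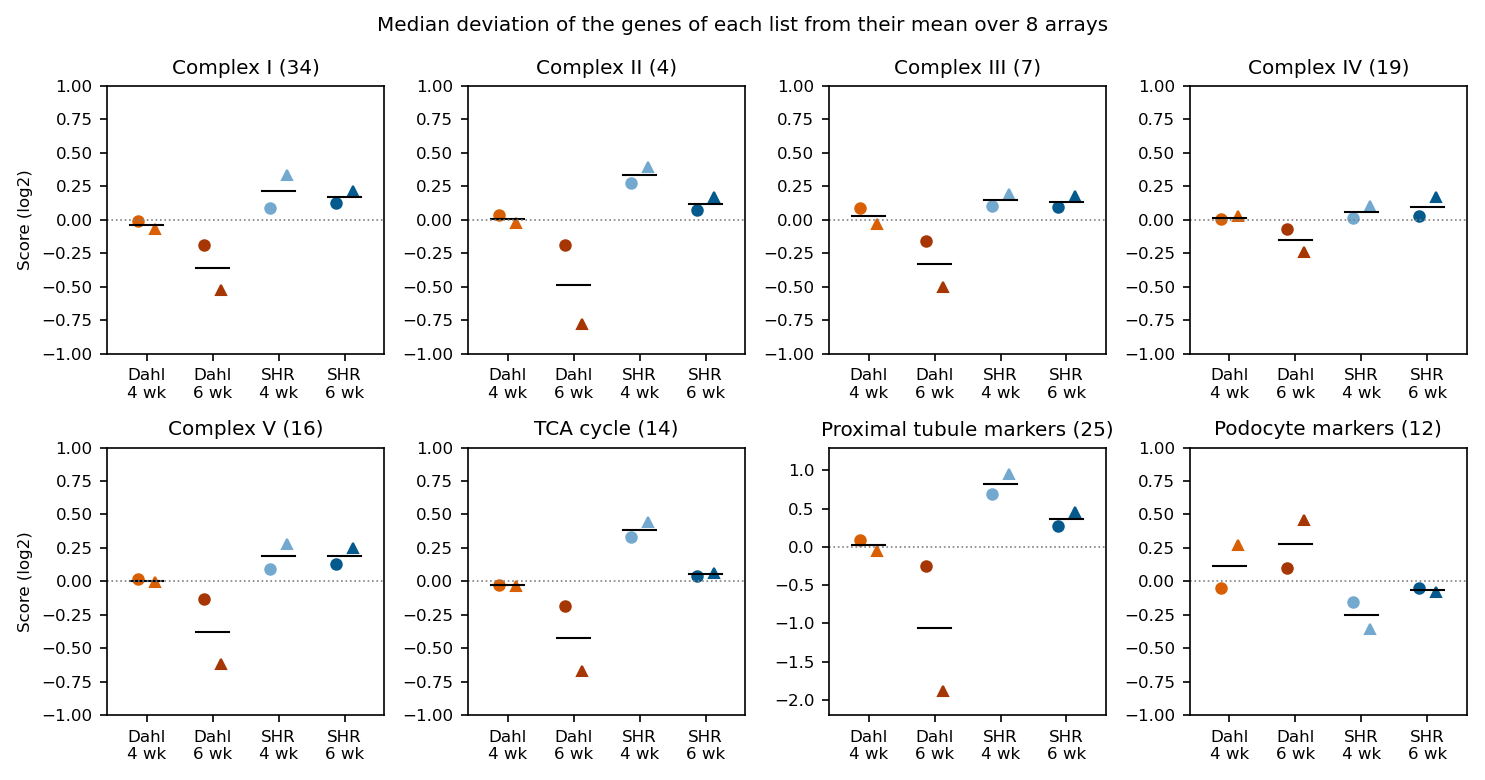
Score of each gene list in each rat: the median deviation (log2) of its genes from their mean over the 8 arrays, with the number of genes in parentheses. Circles are replicate 1, triangles replicate 2 and lines group means; the proximal tubule panel has a wider axis. The second Dahl rat at 6 weeks is lowest for all 5 complexes (-0.24 for complex IV to -0.78 for complex II) and at -1.89 for the tubule markers, while its podocyte score of 0.46 is the highest.

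**Figure D2:**
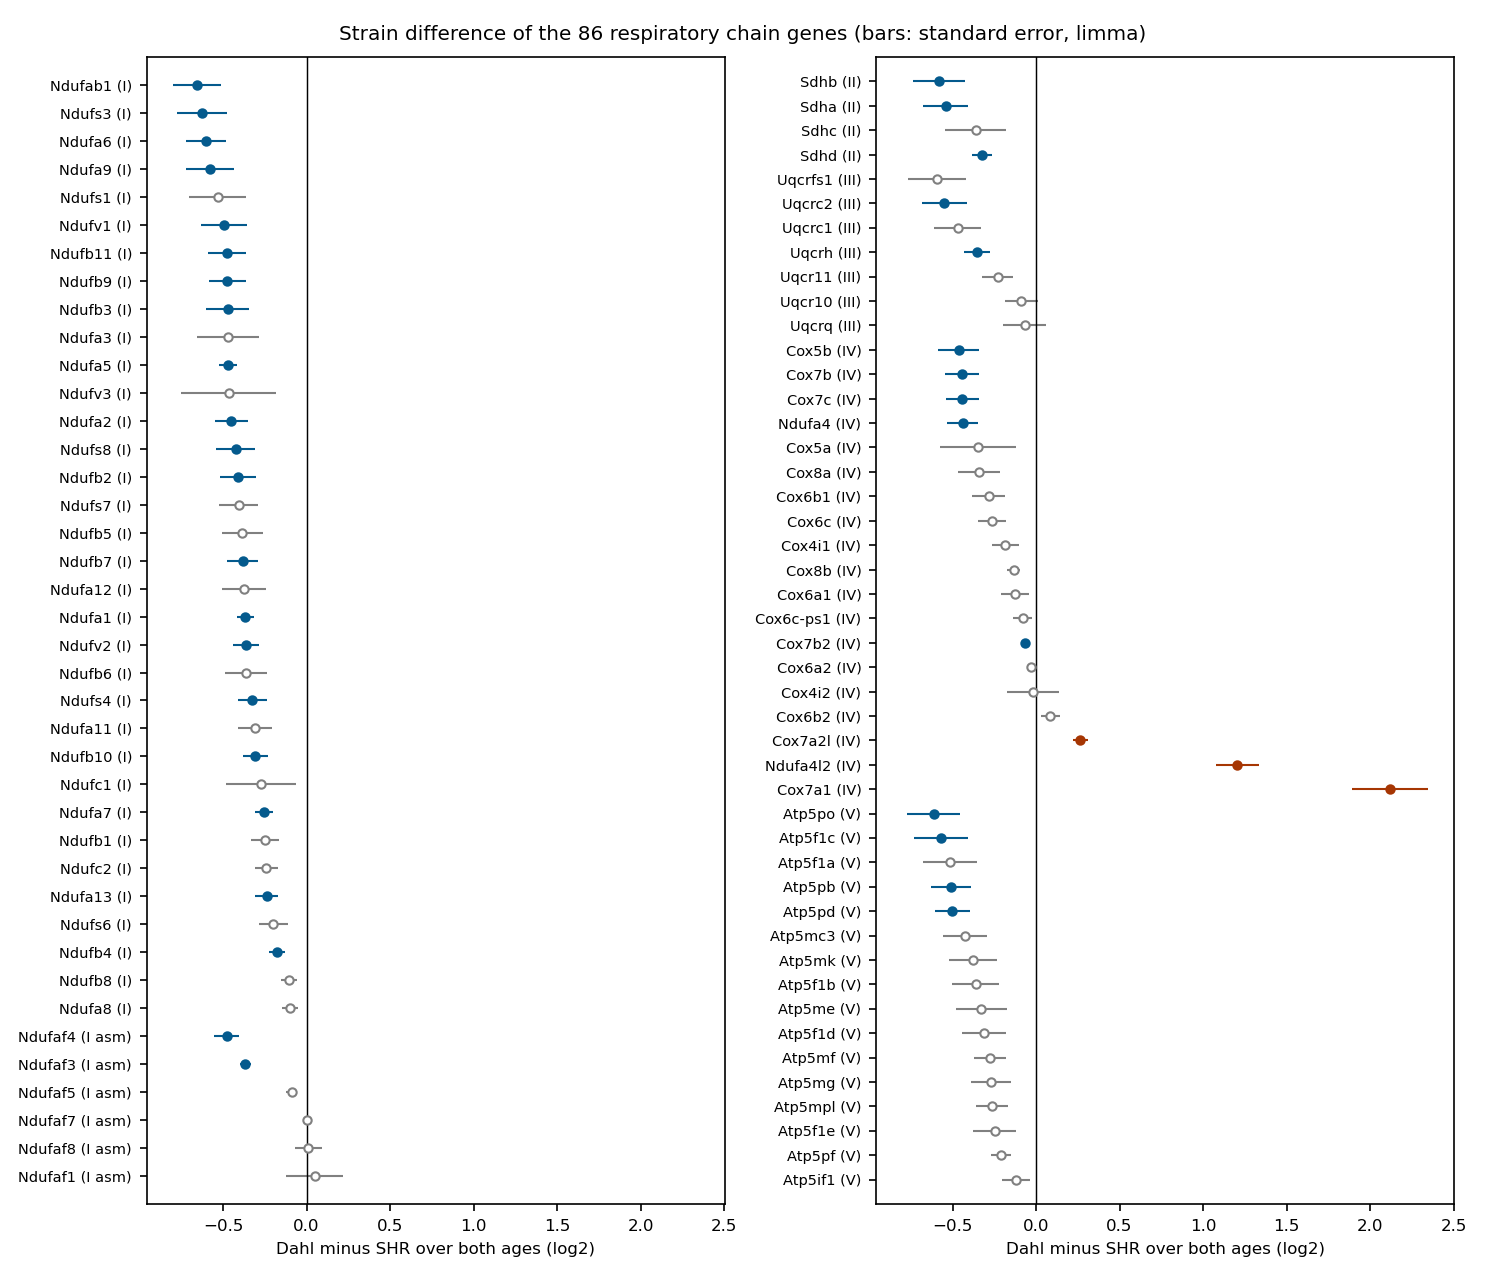
Dahl minus SHR difference over both ages (log2, horizontal axis) for each of the 86 genes by complex, with the standard error from limma as bars. Filled points passed at an adjusted p below 0.05 (blue lower, 36 genes; red higher, 3 genes), open points did not; the red points are all in complex IV.

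Promoters were examined because these genes are known to share a small set of transcription factors, among them nuclear respiratory factor 1 (NRF1), the ETS factor GABP, the estrogen-related receptors (ERR) and YY1. RefSeq promoters, from 250 bases before to 50 bases after the start in build GRCr8, were found for 78 of the 86 genes. The motifs were read on both strands as GCGCATGC for NRF1, CCGGAAGT for ETS factors, AAGGTCA for ERR, AAGATGGC for YY1 and TATAAA for the TATA box, and YY1 was added after the others. No motif contains another, and the NRF1 letters of the 2 strands can overlap. NRF1 letters were in 11.5% of the members' promoters and in 2.47% of all 33469, ETS letters in 10.3% and 3.81%, ERR letters in 14.1% and 4.61%, and YY1 letters in 21.8% and 3.17%. At least 1 of these 4 motifs was in 44.9% of the members' promoters and 13.2% of all promoters. TATA letters were in 10.3% of the members' promoters, against 14.2% of all. The median number of CG pairs was 20 in the members' promoters and 7 over all promoters, and the NRF1 and ETS letters themselves hold a CG pair. The set of all promoters was neither matched for CG pairs nor limited to genes on the array, so these gaps are not particular to respiratory chain genes by this comparison alone.

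Promoters of the genes called lower in Dahl rats were set beside those of the genes that did not pass. NRF1 letters were in 11.8% of the 34 promoters of genes called lower and in 12.2% of the 41 of genes not called. In the same order, ETS letters were in 11.8% and 9.76%, ERR letters in 8.82% and 19.5%, YY1 letters in 14.7% and 26.8% and TATA letters in 5.88% and 14.6%. These shares rest on 2 to 11 promoters each, and their differences were not tested. The median number of CG pairs was 21 in the promoters of genes called lower, 20 in those of genes not called and 8 in the 3 of genes called higher, beside 7 over all promoters. A match describes letters in a window and is no measure of binding.

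The 120 bases before the start are printed for 3 genes called lower. They had the most negative differences among the genes called lower with a motif found in this stretch. The 2 genes with the largest rises are also printed and hold no motif in this stretch (YY1 letters cross the start of Ndufa4l2). Capitals mark NRF1 letters in Atp5po, where both strands overlap, and in Ndufa6, and ETS letters in Cox5b. The sequences are those of RefSeq, 5′ to 3′ in the direction of the gene.
Atp5po (GRCr8, chr11:44657484-44657603, minus strand): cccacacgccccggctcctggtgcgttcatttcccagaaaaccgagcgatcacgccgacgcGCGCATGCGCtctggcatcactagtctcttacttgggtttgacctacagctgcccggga
Ndufa6 (GRCr8, chr7:115750318-115750437, minus strand): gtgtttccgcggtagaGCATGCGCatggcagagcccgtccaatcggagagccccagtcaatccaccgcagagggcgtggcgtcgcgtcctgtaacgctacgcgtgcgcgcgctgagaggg
Cox5b (GRCr8, chr9:46417717-46417836, plus strand): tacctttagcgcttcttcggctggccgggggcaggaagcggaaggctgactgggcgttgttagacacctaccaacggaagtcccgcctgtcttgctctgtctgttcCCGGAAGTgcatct
Cox7a1 (GRCr8, chr1:94569096-94569215, plus strand): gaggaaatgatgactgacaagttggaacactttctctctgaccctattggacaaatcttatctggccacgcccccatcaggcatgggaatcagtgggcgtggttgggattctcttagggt
Ndufa4l2 (GRCr8, chr7:65242049-65242168, plus strand): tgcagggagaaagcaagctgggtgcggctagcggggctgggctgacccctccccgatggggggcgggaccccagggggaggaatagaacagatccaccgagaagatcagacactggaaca

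**Figure D3:**
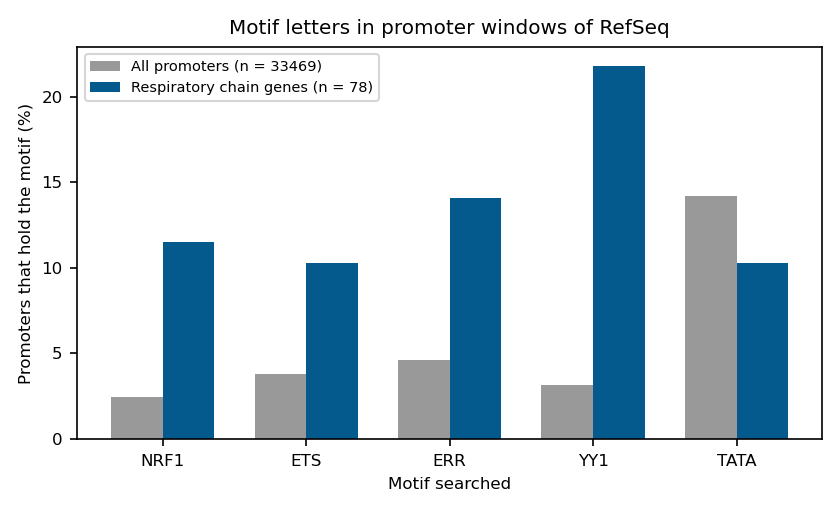
Share of RefSeq promoter windows (vertical axis, percent) that hold the letters of each motif (horizontal axis) on either strand, in all 33469 promoters (grey) and in the 78 matched respiratory chain genes (blue). YY1 letters show the widest gap, 21.8% against 3.17%, and TATA letters run the other way. The sets were not matched for CG pairs (median 7 in all promoters, 20 in the respiratory chain genes).

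Complex I is the entry point for electrons from NADH. All 34 of its subunits on the array had a difference below 0, 20 were called lower in Dahl rats (58.8%, beside 21.2% of all genes) and none higher, and the median was -0.38. For 21 of the 34 (61.8%, beside 33.5% of all genes) all Dahl rats lay below all SHR rats. Of the 6 core subunits, which carry the catalytic machinery, 4 were called lower: Ndufs3 (-0.63), Ndufv1, which binds NADH (-0.49), the iron-sulfur subunit Ndufs8 (-0.42) and Ndufv2 (-0.36). Ndufs1 (-0.53, adjusted p = 0.063) and Ndufs7 (-0.41, adjusted p = 0.052) did not pass.

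Of the 28 accessory subunits of complex I, 16 were called lower (57.1%, beside 21.2% of all genes), from Ndufab1 (-0.66) to Ndufb4 (-0.18). Ndufa5, a subunit of the peripheral arm, had the smallest p of the complex. It read 9.07 and 9.05 in Dahl rats at 4 weeks, 8.89 and 8.84 in Dahl rats at 6 weeks, 9.44 and 9.66 in SHR rats at 4 weeks and 9.32 and 9.31 in SHR rats at 6 weeks. The strains did not overlap. The difference was -0.47 (SE 0.054, adjusted p = 0.0104 by limma), a level 1.38-fold lower in Dahl rats, and it passed under every alternative tried.

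Ndufa1, a small subunit of the membrane arm, read 12.26 and 12.27 in Dahl rats at 4 weeks, 12.10 and 11.95 at 6 weeks, 12.42 and 12.47 in SHR rats at 4 weeks and 12.49 and 12.65 at 6 weeks. All Dahl values were below all SHR values, with the narrower gap at 4 weeks, and the difference of -0.37 passed (SE 0.052, adjusted p = 0.0148 by limma). Ndufa6, which anchors the acyl carrier protein in the complex, read 9.84 and 9.80, 9.74 and 9.31, 10.20 and 10.46, and 10.16 and 10.29 in the same order of groups. The second Dahl rat at 6 weeks was lowest, the strains did not overlap, and the difference was -0.60 (SE 0.119, adjusted p = 0.0269 by limma).

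The largest differences in complex I were those of Ndufab1, the mitochondrial acyl carrier protein, and of the core subunit Ndufs3. Ndufab1 read 11.59 and 11.51 in Dahl rats at 4 weeks, 11.22 and 10.74 at 6 weeks, 11.86 and 12.25 in SHR rats at 4 weeks and 11.74 and 11.84 at 6 weeks. Ndufs3 read 9.95 and 9.83, 9.71 and 9.14, 10.28 and 10.59, and 10.16 and 10.11 in that order. In both genes the strains did not overlap, and the second Dahl rat at 6 weeks lay well below its replicate. Without that rat the differences were -0.54 and -0.49, and neither passed. The other accessory subunits called lower were Ndufa2, Ndufa7, Ndufa9, Ndufa13, Ndufb2, Ndufb3, Ndufb7, Ndufb9, Ndufb10, Ndufb11 and Ndufs4, between -0.58 and -0.24.

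The assembly factors of complex I were less uniform. Of the 6 measured, Ndufaf3 and Ndufaf4, partners in early assembly of the arm that binds ubiquinone, were called lower (33.3%, beside 21.2% of all genes). The median of the 6 was -0.04. Ndufaf3 read 8.06 and 8.02 in Dahl rats at 4 weeks, 7.86 and 7.75 at 6 weeks, 8.43 and 8.37 in SHR rats at 4 weeks and 8.16 and 8.20 at 6 weeks. The replicates lay close together and the strains did not overlap at either age. Its difference of -0.37 (SE 0.034, adjusted p = 0.0078 by limma) had the smallest p of all 86 genes and passed under every alternative tried.

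Ndufaf4 read 7.62 and 7.54, 7.79 and 7.50, 8.24 and 8.30, and 7.85 and 7.97 in the same order of groups. The SHR rats at 4 weeks stood highest, and the difference over both ages was -0.48 (adjusted p = 0.0181 by limma). Ndufaf5, which modifies a core subunit, read 6.80 and 6.71, 6.79 and 6.71, 6.67 and 6.69, and 7.02 and 6.98, so only the SHR rats at 6 weeks stood higher. Ndufaf1, Ndufaf7 and Ndufaf8 had differences between 0.01 and 0.05 and did not pass.

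Complex II, succinate dehydrogenase, also belongs to the tricarboxylic acid cycle. Of its 4 subunits, 3 were called lower in Dahl rats, beside 21.2% of all genes, with a median of -0.45. The flavoprotein Sdha read 10.97 and 11.04 in Dahl rats at 4 weeks, 10.87 and 10.32 at 6 weeks, 11.42 and 11.57 in SHR rats at 4 weeks and 11.12 and 11.25 at 6 weeks. The iron-sulfur subunit Sdhb read 11.44 and 11.23, 11.25 and 10.61, 11.83 and 11.92, and 11.51 and 11.58. The strains did not overlap in either gene, the second Dahl rat at 6 weeks was lowest, and the differences were -0.54 (adjusted p = 0.0392 by limma) and -0.58 (adjusted p = 0.0449).

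The membrane anchors Sdhc and Sdhd hold the enzyme in the inner membrane. Sdhd read 10.96 and 10.95, 10.65 and 10.44, 11.11 and 11.20, and 10.94 and 11.05 in the same order, and the Dahl rats at 4 weeks overlapped with the SHR rats at 6 weeks. Its difference of -0.32 passed (adjusted p = 0.0231 by limma), as did the second probe set of the gene (-0.45). Sdhc read 10.47 and 10.24, 10.17 and 9.42, 10.35 and 10.51, and 10.43 and 10.45, and its difference of -0.36 did not pass (adjusted p = 0.159), with a single low array, the second Dahl rat at 6 weeks.

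All 7 subunits of complex III had differences below 0, and 2 were called lower (28.6%, beside 21.2% of all genes), with a median of -0.35. The hinge subunit Uqcrh read 11.46 and 11.35 in Dahl rats at 4 weeks, 11.22 and 10.91 at 6 weeks, 11.51 and 11.60 in SHR rats at 4 weeks and 11.65 and 11.58 at 6 weeks. The strains did not overlap, but at 4 weeks the nearest pair of rats lay close together. The core subunit Uqcrc2 read 10.95 and 11.10, 10.60 and 10.20, 11.25 and 11.63, and 11.02 and 11.15, and the Dahl rats at 4 weeks overlapped with the SHR rats at 6 weeks. The differences were -0.35 (adjusted p = 0.0344 by limma) and -0.55 (adjusted p = 0.0378).

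The Rieske iron-sulfur protein Uqcrfs1 had the largest difference of complex III but did not pass. It read 10.85 and 10.97, 10.61 and 9.97, 11.22 and 11.48, and 10.90 and 11.18, a difference of -0.59 (adjusted p = 0.0519 by limma), and the strains overlapped. The core subunit Uqcrc1 stood at -0.47, and the small subunits Uqcr10 and Uqcrq at -0.09 and -0.07. Cyc1, the cytochrome of the complex, whose symbol lies outside the selection, read 10.18 to 11.04 in Dahl rats and 10.99 to 11.37 in SHR rats, a difference of -0.45 that did not pass (adjusted p = 0.057).

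Complex IV held all 3 genes that were higher in Dahl rats. Of its 10 widely expressed subunits, 4 were called lower (40.0%, beside 21.2% of all genes) and none higher, with a median of -0.35. These 4 were Cox5b (-0.46), Cox7b (-0.44), Cox7c (-0.44) and Ndufa4 (-0.44). Of the 7 restricted isoforms, Cox7a1 and Ndufa4l2 were called higher, beside 13.2% of all genes, and Cox7b2 lower (14.3%). The Cox7b2 probe set lay among the dimmest on the array, between 2.28 and 2.38, and its difference of -0.07 is the size of the shift of all dim probe sets (-0.06 and -0.11 in the dimmest classes).

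Cox7a1, the isoform of subunit 7a that is typical of heart and skeletal muscle, showed the largest difference of all 86 genes. It read 5.53 and 5.92 in Dahl rats at 4 weeks, 6.61 and 7.25 in Dahl rats at 6 weeks, 3.78 and 3.37 in SHR rats at 4 weeks and 4.57 and 5.12 in SHR rats at 6 weeks. All 4 Dahl rats lay above the 4 SHR rats, and both strains stood higher at 6 than at 4 weeks. The level was 4.34-fold higher in Dahl rats (log2 2.12, SE 0.23, adjusted p = 0.00921 by limma), and the log2 difference ran from 1.96 to 2.28 under the alternatives, all of which passed. Its widely expressed partner Cox7a2 is measured only by a probe set that also names Cox7a2l2.

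Ndufa4l2, the counterpart of Ndufa4 that is known to be induced by low oxygen and to be made in pericytes and smooth muscle, was also higher. It read 7.95 and 8.03 in Dahl rats at 4 weeks, 7.80 and 8.16 at 6 weeks, 5.95 and 6.23 in SHR rats at 4 weeks and 7.31 and 7.63 at 6 weeks. The Dahl rats held one level at both ages, and the SHR rats at 4 weeks stood well below the rest. The level was 2.31-fold higher in Dahl rats (log2 1.21, SE 0.13, adjusted p = 0.00904 by limma). Its partner Ndufa4 went the other way, with 11.94 and 12.00, 11.69 and 11.40, 12.04 and 12.29, and 12.18 and 12.28 in that order, and no overlap of the strains.

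Markers of mesangial and smooth muscle cells stood higher in the same rats. Of 13 such markers, 10 were called higher in Dahl rats (76.9%, beside 13.2% of all genes) and none lower, with a median of 0.82. Their score was 0.32 to 0.45 in Dahl rats and -0.65 to -0.18 in SHR rats. Of 20 striated muscle markers 10 were called lower, beside 21.2% of all genes. Their differences lay below 0 for 15, and the median was -0.08. That median is the size of the shift of all dim probe sets (-0.06 and -0.11 in the dimmest classes). Whether the lower calls go beyond this shift was not tested. Another 3 of the 20 striated muscle markers were called higher, beside 13.2% of all genes. They were the calcium release channel Ryr1 (3.27), the troponin Tnnc1 (1.02) and titin, Ttn (0.68). The fast muscle myosins Myh2 and Myh4 read at most 2.91 and 3.24. The part of these cells in the Cox7a1 and Ndufa4l2 results was not tested.

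Cox7a2l, which helps to join complexes III and IV into supercomplexes, read 10.26 and 10.24, 10.34 and 10.33, 9.95 and 10.14, and 10.02 and 10.00 in the order Dahl at 4 and 6 weeks and SHR at 4 and 6 weeks. The strains did not overlap, and the difference of 0.26 (SE 0.045, adjusted p = 0.0206 by limma) was small in size, at 1.20-fold.

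No gene of the Cox4, Cox6a, Cox6b and Cox8 isoform pairs was called, and levels of different probe sets were not compared with each other. Cox4i1 read 11.97 and 12.03, 11.95 and 11.63, 12.05 and 12.18, and 12.02 and 12.07, and Cox4i2, the isoform of lung, read 2.78 and 3.22, 3.09 and 3.58, 3.33 and 3.14, and 3.14 and 3.14. Neither passed, and both overlapped between strains. Cox8a read 12.43 and 12.42, 12.23 and 11.74, 12.43 and 12.62, and 12.47 and 12.65 (-0.34, adjusted p = 0.084), whereas the muscle form Cox8b stayed between 2.68 and 2.95 (-0.13, adjusted p = 0.052). Cox6a1 read 12.02 to 12.27 in Dahl rats and 12.15 to 12.47 in SHR rats, and Cox6b1 10.47 to 11.02 and 10.92 to 11.27. The muscle form Cox6a2 (1.68 to 1.72) and the testis form Cox6b2 (2.53 to 2.83) read within narrow ranges, and none of these 4 passed.

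**Figure D4:**
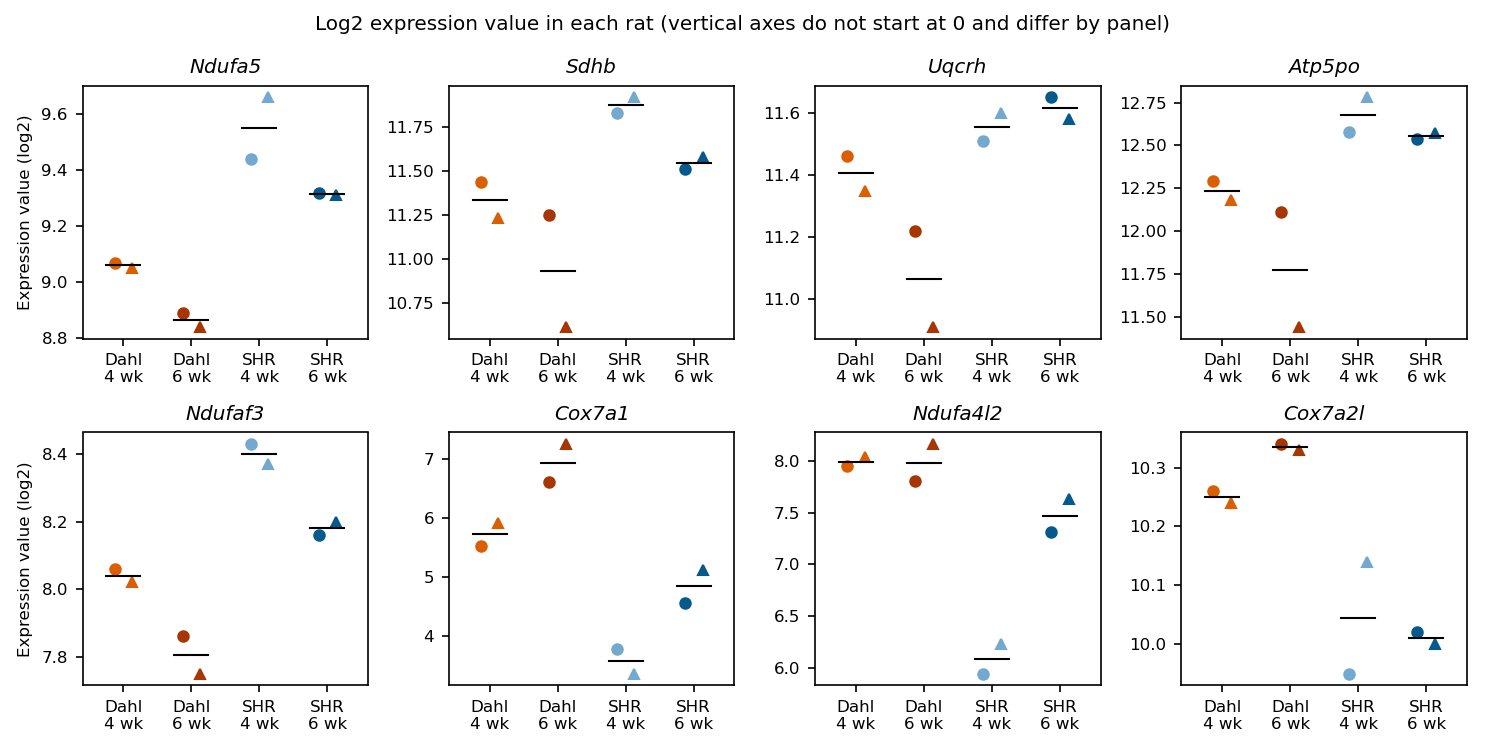
Log2 expression value (vertical axis) of 8 genes in each rat, with circles for replicate 1, triangles for replicate 2 and lines for group means. Each vertical axis has its own range and does not start at 0. In the Ndufa5, Sdhb, Uqcrh, Atp5po and Ndufaf3 panels all Dahl rats lie below all SHR rats, and in the Cox7a1, Ndufa4l2 and Cox7a2l panels all lie above.

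All 16 genes of complex V had differences below 0, and 4 were called lower in Dahl rats, a share near the 21.2% of all genes, with a median of -0.34. Of these, 3 belong to the peripheral stalk, which holds the catalytic head still against the rotor. Its subunit Atp5po read 12.29 and 12.18 in Dahl rats at 4 weeks, 12.11 and 11.44 at 6 weeks, 12.58 and 12.78 in SHR rats at 4 weeks and 12.54 and 12.57 at 6 weeks. Atp5pb read 11.30 and 11.33, 11.03 and 10.67, 11.57 and 11.77, and 11.36 and 11.66, and Atp5pd read 11.62 and 11.41, 11.41 and 11.06, 11.75 and 11.98, and 11.88 and 11.90. In all 3 genes the strains did not overlap and the second Dahl rat at 6 weeks was lowest.

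The differences of the stalk subunits were -0.61 for Atp5po (adjusted p = 0.0426 by limma), -0.51 for Atp5pb (adjusted p = 0.0352) and -0.50 for Atp5pd (adjusted p = 0.0307). Without the second Dahl rat at 6 weeks Atp5po still passed (-0.45), and Atp5pb (-0.42) and Atp5pd (-0.41) did not. Of the 5 subunits of the catalytic head, the rotor subunit Atp5f1c was called lower (-0.57), and the catalytic pair Atp5f1a (-0.51, adjusted p = 0.060) and Atp5f1b (-0.36, adjusted p = 0.095) did not pass. None of the 6 genes of the membrane part passed (median -0.30), nor did the inhibitor Atp5if1 (-0.12). Whether the parts of the complex differ from each other was not tested.

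At 4 weeks, before the age at which proteinuria is known to appear in Dahl rats, 3 of the 86 genes (3.49%) were called lower (Ndufaf4 -0.69, Ndufa5 -0.49 and Ndufaf3 -0.36), beside 6.06% of all genes. Another 2 were called higher (Cox7a1 2.15 and Ndufa4l2 1.90), beside 7.88%. The shares called lay below those of all genes. The median difference was -0.19, with 75 of 86 below 0, beside 8396 of all 14217 genes. Without single arrays the median ran from -0.27 (without the first SHR rat at 4 weeks) to -0.09 (without the second), and the count from 0 (without the second Dahl rat at 4 weeks) to 9 (without either Dahl rat at 6 weeks). It was 1 without the first Dahl rat at 4 weeks or without either SHR rat at 6 weeks, and 3 without either SHR rat at 4 weeks.

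At 6 weeks, 2 genes were called lower (Ndufa1 -0.55 and Ndufaf3 -0.37) and 1 higher (Cox7a1 2.09), beside 1.62% of all genes in each direction. The median was -0.50, with 80 of 86 below 0, beside 8770 of all 14217 genes. In limma, 63 of the 86 genes had an unadjusted p below 0.05, beside 4801 of all 14217 genes. The 2 Dahl rats of this age differed more in their score than those of any other group, and the count was 0 without the second of them and 37, of which 36 lower, without the first.

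By size, the strain difference was more negative at 6 than at 4 weeks for 74 of the 86 genes, and 72 were lower in Dahl rats at both ages. The change of the difference with age was called for none of the 86 genes, beside 0.71% of all genes. In limma, 7 of the 86 genes had an unadjusted p below 0.05, a smaller share than the 2000 of all 14217 genes. The nearest to passing was Ndufa4l2, whose difference went from 1.90 at 4 weeks to 0.51 at 6 weeks (interaction -1.39, adjusted p = 0.140). The median interaction was -0.29, and -0.12 without the second Dahl rat at 6 weeks.

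**Figure D5:**
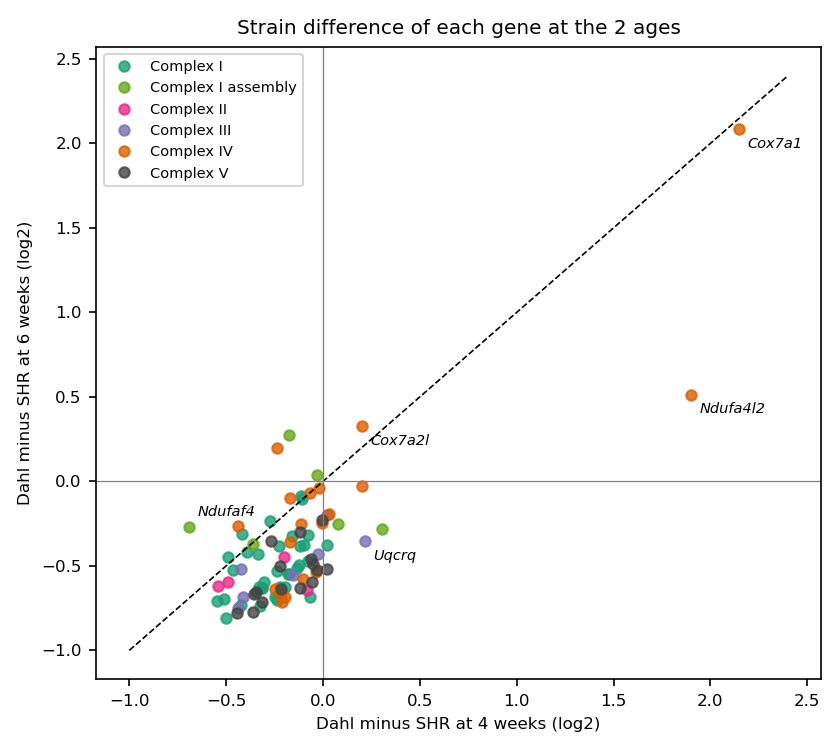
Dahl minus SHR difference (log2) of each of the 86 genes at 4 weeks (horizontal axis) and at 6 weeks (vertical axis), coloured by complex; the dashed line marks equal differences. Of the 86 genes, 72 lie in the lower left, and 74 lie below the line in any part of the plot. Cox7a1 lies near the line at 2.15 and 2.09, and Ndufa4l2 lies at 1.90 and 0.51.

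From 4 to 6 weeks in Dahl rats, no respiratory chain gene was called, beside 0.0985% of all genes. In limma, 19 of the 86 genes had an unadjusted p below 0.05, beside 1555 of all 14217 genes. The median change was -0.30, and 81 of 86 lay below 0, beside 8007 of all 14217 genes. The 81 included all genes of complexes I, II, III and V. The median change was -0.14 without the second Dahl rat at 6 weeks. The nearest to passing were Sdhd (-0.41, adjusted p = 0.280), Ndufaf3 (-0.23, adjusted p = 0.298) and Ndufb4 (-0.30, adjusted p = 0.327).

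From 4 to 6 weeks in SHR rats, 2 of the 86 genes were called, both upward, beside 3.42% of all genes in either direction. Ndufa4l2 rose 2.60-fold (log2 1.38, SE 0.18, adjusted p = 0.0368 by limma), from the values given above. Ndufaf5 rose by 0.32 (adjusted p = 0.0431), from 6.67 and 6.69 to 7.02 and 6.98. The count was 1 with a trended variance, quantile normalization or median centring, and 0 or 1 when any single array was left out (0 without either Dahl rat at 4 weeks, the second SHR rat at 4 weeks or either SHR rat at 6 weeks). The median change of the 86 genes was -0.02, with 47 below 0 and 39 above. Cox7a1 stood 1.27 higher at 6 weeks in SHR rats and 1.20 higher in Dahl rats, and neither change passed.

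Other mitochondrial pathways were counted over both ages, against 21.2% of all genes called lower and 13.2% higher. Of 14 genes of the tricarboxylic acid cycle, 9 were called lower in Dahl rats (64.3%) and none higher (median -0.40), with the smallest p for citrate synthase, Cs (-0.20), Idh2 (-0.93) and Pdhb (-0.39). Of 16 genes of fatty acid oxidation, 12 were called lower and none higher (median -0.75). Etfdh, which delivers electrons from fatty acid oxidation to ubiquinone, read 7.56 to 8.20 in Dahl rats, 9.75 and 10.12 in SHR rats at 4 weeks and 8.78 and 8.83 at 6 weeks, a difference of -1.43 (adjusted p = 0.0062 by limma). The SHR rats at 4 weeks stood highest, and the strains did not overlap. The trifunctional protein genes Hadha (-0.55) and Hadhb (-0.64) were also called lower. At 4 weeks alone, 7 of the 16 fatty acid oxidation genes were called lower (43.8%), beside 6.06% of all genes at that age.

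Of 73 genes of the mitochondrial ribosome, 32 were called lower (43.8%) and 1 higher (median -0.28). The one higher was Mrpl4, which read 7.96 to 8.43 in Dahl rats and 6.95 to 7.26 in SHR rats (1.13, adjusted p = 0.0065 by limma). Mrpl22 (-0.59) and Mrps22 (-0.57) had the next smallest p. Of 8 antioxidant enzymes of mitochondria, 4 were called lower (Gpx4 -0.43, Prdx5 -0.62, Gpx1 -0.69 and Prdx3 -0.51).

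Assembly factors and regulators were mixed, with shares called lower near or below that of all genes. Of 16 genes for the assembly of complex IV, 4 were called lower and 2 higher. Pet100 read 6.26 to 6.93 in Dahl rats and 7.83 to 8.31 in SHR rats (-1.41, adjusted p = 0.0073 by limma), Surf1 (-0.26) and the RNA stabilizer Lrpprc (-0.67) were lower, and the copper chaperone Sco1 was higher (0.38). Of 18 assembly factors of the other complexes, 3 (16.7%) were called lower (Foxred1 -0.37, Atpaf2 -0.35 and Sdhaf3 -0.73) and 1 higher (Timmdc1 0.32).

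Of 16 regulators of mitochondrial biogenesis, 4 were called lower and 2 higher. The mitochondrial polymerase subunit Polg2 (-0.85), the transcription factors of mitochondrial DNA Tfb2m (-0.39) and Tfb1m (-0.29), and Ssbp1 (-0.17) were lower. The 2 higher were Gabpa (0.37) and Gabpb1 (0.36), which encode the subunits of the ETS factor GABP. Of 9 carriers and uncoupling proteins, the ATP carrier Slc25a5 (-0.53) and the channel Vdac2 (-0.25) were called lower (22.2%) and Ucp2 higher (0.51). Of 13 glycolytic genes, the hexokinase Hk1 was called higher (0.60) and Tpi1 (-0.41) and the dim Hk2 (-0.05) lower (15.4%).

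Markers of glomerular cells stood higher in Dahl rats. Of 12 podocyte markers 4 were called higher and none lower (median 0.34), and of 13 endothelial markers 7 higher and none lower (median 0.38). Of 15 leukocyte markers 7 were called higher and 4 lower (median 0.48), and of 9 fat cell markers 4 lower and none higher (median -0.09). Of 5 erythroid markers 1 was called lower and none higher, but 3 had differences above 0 and the median was 0.23. Slc4a1 is in both the erythroid and the distal nephron list. Over all genes, 13.2% were called higher and 21.2% lower. The part of these cells in the differences of the respiratory chain genes was not tested.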

How the data were processed

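RNA of isolated glomeruli was measured on Affymetrix Rat Genome 230 2.0 arrays, 1 per rat, with 8 arrays in 4 groups of 2. Deposited values are on the log2 scale, after background correction, normalization between arrays and summary per probe set by the authors. RMA and GCRMA are listed in their processing notes without roles. The values were used as they stand. Groups were taken from the labels, which call the 2 rats of a group biological replicates.

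The array annotation named 1 gene for 20826 probe sets, giving 14217 genes, and each gene was represented by its probe set of the highest mean. Probe sets with several symbols (436) were left out. The means of the 4 groups were modelled for 31042 probe sets with limma 3.58.1 in R 4.3.3 and tested on simulated data. It leaves 4 residual and 0.921 prior degrees of freedom. Calls were made at an adjusted p below 0.05 (Benjamini-Hochberg over all probe sets). The number of arrays limits the precision.

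Values per array are given for up to 3 genes per complex with the smallest p over both ages, the 3 largest called differences in each direction, isoform pairs and complex II. The lists take up to 3 genes with the smallest p, and further genes were named after their values were seen. The members and lists were chosen with earlier results of these data known. Motifs were searched with Python (pandas 2.3.3) in RefSeq promoters. Alternatives were a trended robust variance, quantile normalization, median centring, brighter probe sets, other probe sets per gene, the replicate number as a block, the methods' test and each array left out.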

Additional observations from a re-analysis of the deposited data

How the results depend on the processing

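Over both ages, 39 of the 86 genes were called. The count was 12 with quantile normalization and 17 with the methods' t-test (Benjamini-Hochberg adjusted), and it stayed within 1.5 times of 39 with a trended robust variance, median centring, the brighter probe sets and other choices of probe set. Leaving out single arrays gave 4 to 60: 7 and 4 without the first and second Dahl rat at 4 weeks, 60 and 16 without those at 6 weeks, 22 and 6 without the SHR rats at 4 weeks and 7 and 5 without those at 6 weeks. Cox7a1, Ndufa5 and Ndufaf3 were called under every alternative, and Ndufa4l2 under all but the methods' test (adjusted p = 0.0640). None of the genes called over both ages reversed its direction. Of the isoforms that did not pass, Cox4i2 (-0.02) stood at 0.055 with quantile normalization, 0.09 and 0.10 without the first Dahl rat at 4 and at 6 weeks and 0.03 without the first SHR rat at 4 weeks, and Cox6a2 (-0.03) at 0.00111 with quantile normalization, none of which passed. The cause of these changes was not tested.

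At 4 weeks the 5 calls became 8 with the trended variance, 0 with the methods' test and 0 to 9 without single arrays. At 6 weeks the 3 calls became 34 with the trended variance, 0 with the methods' test and 0 to 37 without single arrays. The 2 calls with age in SHR rats became 1 with the trended variance, quantile normalization or median centring, 0 with the methods' test and 0 to 1 without single arrays. The counts of 0 with age in Dahl rats and for the interaction ran from 0 to 6 and from 0 to 2 without single arrays. The median differences ran from -0.44 to -0.25 over both ages, -0.27 to -0.09 at 4 weeks, -0.66 to -0.32 at 6 weeks, -0.48 to -0.14 with age in Dahl rats, -0.11 to 0.06 with age in SHR rats and -0.44 to -0.12 for the interaction when single arrays were left out, and moved by less than the spread between replicates elsewhere.

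The replicate numbers did not pair the rats: correlations of the deviations between groups ran from -0.23 to 0.24. With the number as a block, the calls were 10 over both ages, 3 at 4 weeks, 0 at 6 weeks and 1 with age in SHR rats, and 0 for the others.

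Limits are the 2 rats per group, strains that differ throughout the genome, and bulk tissue in which the scores of tubule markers varied between arrays. Dim probe sets have compressed values. Signal intensity says nothing of protein or respiration.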

Other observations

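Another 7 probe sets name a respiratory chain gene beside a second symbol, in most cases a like-named copy, and were left out of the counts. All 7 had differences below 0 over both ages. The probe set of Cox7a2 and Cox7a2l2 was called (-0.37, adjusted p = 0.0255 by limma). It read 12.21 and 12.17 in Dahl rats at 4 weeks, 12.07 and 11.91 at 6 weeks, 12.31 and 12.50 in SHR rats at 4 weeks and 12.44 and 12.61 at 6 weeks, so the strains did not overlap, and the direction was opposite to that of Cox7a1. The others, which did not pass, were those of Cox5a (-0.50), Atp5mc1 (-0.44), Uqcrb (-0.37), Ndufa10 (-0.32), Atp5mc2 (-0.14) and Ndufs5 (-0.14).

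Of the 86 genes, 9 had several probe sets. For Ndufa9 these differed in sign: the bright one was called lower (-0.58), and a dim one with a mean of 3.04 stood at 0.11 and did not pass (adjusted p = 0.656). For Uqcrc2 the brighter one was called (-0.55) and the other was not (-0.23, adjusted p = 0.265).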
